A study of Rattus norvegicus with 6 samples.

Results

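The 10 genes described here encode the alpha-1 subunits of voltage-gated calcium channels, and they were chosen by symbol from the 38445 genes counted in the amygdala. They are Cacna1a, Cacna1b, Cacna1c, Cacna1d, Cacna1e, Cacna1f, Cacna1g, Cacna1h, Cacna1i and Cacna1s, and each symbol matched 1 NCBI gene identifier. The RNA came from adult male Sprague Dawley/WT rats that received an intraperitoneal injection of saline (control) or of ethanol at 1 g/kg, with the amygdala taken 1 h later. RNA of 2 rats was pooled for each library, so that 6 rats per group gave 3 libraries per group, and the variation between the 2 rats of a pool is not visible. The comparison asks whether acute ethanol, a single dose 1 h earlier, went with another level of these mRNAs.

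The alpha-1 subunit forms the pore of a voltage-gated calcium channel, carries its voltage sensor and selectivity filter, and decides which type of calcium current a cell has. L-type channels (Cav1) open at strong depolarization and couple calcium entry to gene expression in neurons and to contraction in muscle. P/Q-, N- and R-type channels (Cav2) admit the calcium that triggers transmitter release at nerve terminals, and T-type channels (Cav3) open near the resting potential and support burst firing. Ethanol is known to reduce calcium current through several of these channels at intoxicating concentrations, and long exposure is known to alter their abundance in neurons. Calcium channels of the amygdala are of interest because they shape the excitability and output of its anxiety-related circuits.

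The libraries held between 62576504 and 70755739 assigned reads, of which 62362 to 81873 (0.0964% to 0.116%) belonged to the 10 alpha-1 genes. Markers of 16 cell types and neighboring regions were summed in CPM, counts per 1e+06 reads scaled by the TMM method. The summed levels overlapped between the groups for 14 lists. The choroid plexus list was the main exception, with 513 to 1109 CPM in the control libraries and 11.8, 12.7 and 474 CPM in ethanol libraries 1, 2 and 3. Of its 8 genes, 7 were tested and 0 had an adjusted p below 0.2 in edgeR's quasi-likelihood test (4 had an unadjusted p below 0.05), and Otx2 had 1 count in all libraries together. The motile cilia and ependyma list ran from 39.3 to 53.8 CPM in controls and from 30.7 to 35.0 CPM after ethanol. Of its 6 genes tested, 5 had an unadjusted p below 0.05 in the same test, against 4.21% of all genes tested. Among all single genes tested, 8.85% had no overlap between the groups in CPM. General neuronal markers were abundant in every library (5236 to 5571 CPM in controls and 5008 to 6028 CPM after ethanol) although Eno2 of that list was listed at only 0 to 5 counts. Cortical-type glutamatergic markers were between 587 and 982 CPM in controls and between 617 and 1112 CPM after ethanol, and oligodendrocyte markers were between 3549 and 8379 CPM and between 4355 and 9727 CPM. Hypothalamic peptide genes were between 15.2 and 115 CPM in controls and reached 329 CPM in ethanol library 3. The part of these differences in the values below was not tested, and in bulk tissue fewer cells of a type and less RNA per cell cannot be told apart.

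The alpha-1 genes are long genes with many exons, on 8 different chromosomes. In the Rnor_6.0 annotation used for counting, Cacna1c spans 635 kb of chromosome 4 (150635808 to 151270790) and Cacna1e 635.5 kb of chromosome 13 (71899445 to 72534992). Cacna1a spans 296.3 kb of chromosome 19 (25453236 to 25749550), Cacna1d 294.7 kb of chromosome 16 (6110294 to 6405022) and Cacna1b 184.9 kb of chromosome 3 (1740026 to 1924959). The T-type genes are shorter, with 97.5 kb for Cacna1i on chromosome 7 (121521787 to 121619300), 68.8 kb for Cacna1g on chromosome 10 (82129071 to 82197828) and 58.3 kb for Cacna1h on the same chromosome (14730932 to 14789201). Cacna1s spans 75 kb of chromosome 13 (52889570 to 52964558), and Cacna1f, the most compact, spans 28.4 kb of the X chromosome (15712709 to 15741135). Merged over all annotated transcripts, they have between 37 (Cacna1h) and 54 (Cacna1d and Cacna1e) exonic blocks. These blocks add up to between 6099 bases (Cacna1s) and 18729 bases (Cacna1d), which are the lengths used below. No exonic base of any of the 10 is shared with another gene on the same strand. On the opposite strand, Cacna1d shares 68 bases with LOC108348454 and Cacna1h 328 bases with Tpsg1, a mast cell protease gene, and the counting used strand. The values are totals over all splice forms of a gene, so the splice variants for which this family is known are not resolved.

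Promoter sequences of 7 of the 10 genes were read from the RefSeq promoter table (build GRCr8), which has no entry for Cacna1g, Cacna1h and Cacna1i. The 250 bases before the annotated start of transcription are shown for 3 genes, because they span the range of CpG number in the family and belong to a highly expressed, a moderately expressed and a barely expressed member. Capitals mark CpG dinucleotides. Cacna1e is at chr13:69444811-69445060 (minus strand), Cacna1d at chr16:5527550-5527799 (minus strand) and Cacna1s at chr13:50045418-50045667 (plus strand).
Cacna1e: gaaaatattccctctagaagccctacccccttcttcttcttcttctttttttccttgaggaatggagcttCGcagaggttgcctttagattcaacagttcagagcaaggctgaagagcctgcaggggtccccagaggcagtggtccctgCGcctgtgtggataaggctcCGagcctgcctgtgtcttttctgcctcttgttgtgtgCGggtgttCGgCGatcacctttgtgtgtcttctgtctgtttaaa
Cacna1d: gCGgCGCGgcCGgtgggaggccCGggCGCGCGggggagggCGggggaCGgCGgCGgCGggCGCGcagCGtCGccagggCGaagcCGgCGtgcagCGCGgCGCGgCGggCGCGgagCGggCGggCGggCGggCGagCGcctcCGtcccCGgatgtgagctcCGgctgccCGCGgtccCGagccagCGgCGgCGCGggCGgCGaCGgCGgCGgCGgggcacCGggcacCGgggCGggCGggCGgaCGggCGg
Cacna1s: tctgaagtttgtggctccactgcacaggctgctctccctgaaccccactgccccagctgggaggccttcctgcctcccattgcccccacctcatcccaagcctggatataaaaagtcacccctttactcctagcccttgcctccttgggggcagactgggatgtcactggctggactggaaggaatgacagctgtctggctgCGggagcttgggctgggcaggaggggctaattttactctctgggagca

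The number of CpGs in these windows was 56 for Cacna1d, 34 for Cacna1a, 28 for Cacna1b, 6 for Cacna1e, 5 for Cacna1f, 3 for Cacna1c and 1 for Cacna1s, against a median of 5 over the 33469 promoters of the table. Only 2 promoters of the table, Cacna1d included, had 56 or more. The order of the mRNA levels was another one than this order, since Cacna1e, with the highest level per length, had 6 CpGs and the CpG-dense Cacna1d had 3.89 RPKM (reads per kilobase of exonic length and per 1e+06 reads, with TMM scaling) against 16.6 RPKM for Cacna1e. The motif TATAAA, searched on both strands, was found in Cacna1s alone among the 7, starting 144 bases before the start site on the gene's own strand, and in 12.9% of all promoters. The motif GGGCGG, likewise on both strands, was found in Cacna1a, Cacna1b, Cacna1d and Cacna1f and in 30.5% of all promoters. The palindrome TGACGTCA was in 0 of the 7 windows and in 1.59% of all promoters. These matches describe letters of 1 annotated window per gene, and the start sites used in the amygdala were not measured.

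Of the 10 alpha-1 genes, 8 were expressed at more than 1 RPKM and 2 had few counts, between 11 and 31 in a library. Averaged over the 6 libraries, the R-type gene Cacna1e had the highest level per length, 16.6 ± 1.92 RPKM (SD, n = 6 libraries). It was followed by the T-type genes Cacna1g and Cacna1h at 15.2 ± 1.34 and 14.9 ± 1.81 RPKM (SD, n = 6), the P/Q-type gene Cacna1a at 12.9 ± 0.839 RPKM and the N-type gene Cacna1b at 12.6 ± 0.923 RPKM (SD, n = 6). The T-type gene Cacna1i had 11.6 ± 1.79 RPKM (SD, n = 6). The neuronal L-type genes were lower, with 4.49 ± 0.558 RPKM for Cacna1c and 3.89 ± 0.256 RPKM for Cacna1d (SD, n = 6). Among the 18141 genes tested, 74.2% had a lower level per length than Cacna1e and 44.9% a lower one than Cacna1d. Cacna1s, the skeletal muscle gene, and Cacna1f, the retinal gene, had 0.0502 ± 0.0178 and 0.0428 ± 0.00926 RPKM (SD, n = 6), and fewer than 2% of the tested genes had a lower level than either (1.63% and 1.06%).

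**Figure D1:**
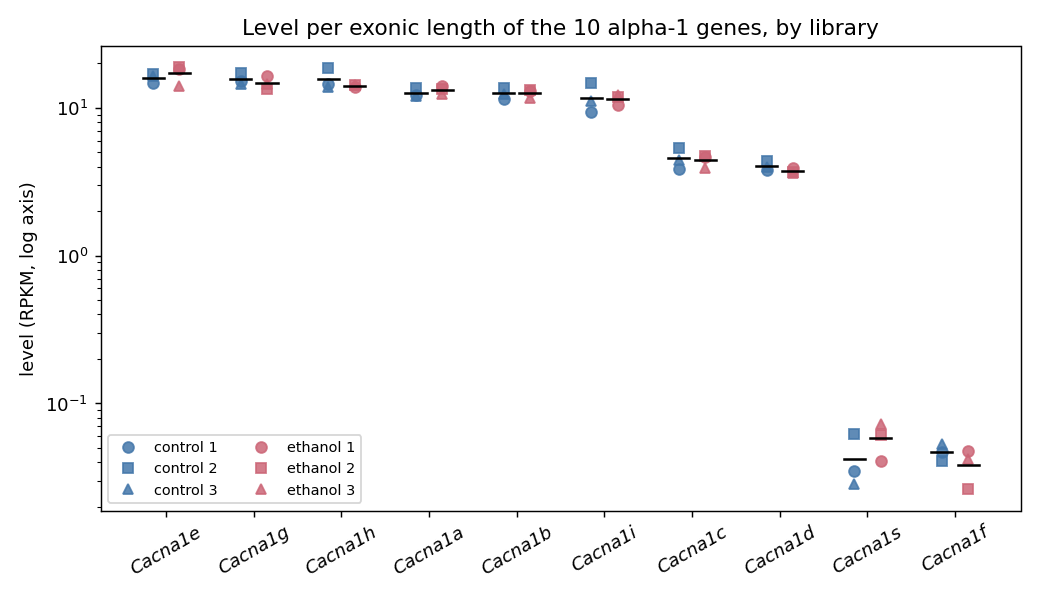
Level per exonic length (RPKM, log axis) of the 10 alpha-1 genes, with blue for control and red for ethanol libraries, a marker shape for each replicate number and black bars for group means. The first 8 genes sit between 3.62 and 18.9 RPKM in every library and Cacna1s and Cacna1f between 0.0262 and 0.073 RPKM.

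Much of this order was not resolved by the 6 libraries. Neighboring genes in the order of mean log2 RPKM were compared within libraries by a 2-sided exact sign-flip permutation test, whose smallest possible p with 6 libraries is 0.0312, with Benjamini-Hochberg adjustment over the 9 neighboring pairs. Cacna1i exceeded Cacna1c by 2.58-fold in 6 of 6 libraries, Cacna1c exceeded Cacna1d by 1.15-fold in 6 of 6, and Cacna1d exceeded Cacna1s by 81.8-fold in 6 of 6 (exact permutation p = 0.0312, adjusted p = 0.0938 for each). These were the 3 clearest steps, and the ranges over libraries did not overlap between Cacna1i and Cacna1c and between Cacna1d and Cacna1s. All 3 had the smallest possible p, so neither their p nor their adjusted p measures the size of a step. The order was set on these same 6 libraries, which also fixed the direction of each mean difference. The steps among the first 6 genes were between 1.02-fold and 1.15-fold, and their ranges over libraries overlapped. Their exact permutation p ran from 0.0625 (Cacna1h above Cacna1a in 5 of 6 libraries) to 0.656 (Cacna1g above Cacna1h in 4 of 6). Among these steps only that of Cacna1h above Cacna1a had a mean log2 difference (0.198) larger than its SD (0.16). Cacna1s and Cacna1f were not ordered either, since Cacna1s was higher in 3 of 6 libraries (exact permutation p = 0.625), and in the control libraries alone these 2 genes traded places. By mean RPKM of the controls Cacna1h (15.65) also stood just above Cacna1g (15.61). A level per length also depends on the annotated exonic length, which was long for Cacna1c, Cacna1d and Cacna1e.

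Added up by family in RPKM, the Cav2 and Cav3 genes contributed similar shares of the alpha-1 mRNA and the Cav1 genes a small one. This depends on the annotated exonic lengths, and in CPM Cav2 stood above Cav3. In mean control CPM Cacna1a, Cacna1b and Cacna1e had 125, 127 and 279, and Cacna1g, Cacna1h and Cacna1i had 133, 138 and 78.6. The Cav2 genes made up 44.45% ± 1.89 of the summed RPKM in controls and 46.9% ± 2.53 after ethanol (SD, n = 3). The Cav3 genes made up 46.2% ± 1.91 and 44.1% ± 2.65, and the Cav1 genes 9.34% ± 0.269 and 9.005% ± 0.13 (SD, n = 3). The shares of the groups overlapped for Cav2, for Cav3 and, narrowly, for Cav1, whose control library 1 (9.048%) lay just below ethanol libraries 1 and 2 (9.102% and 9.054%). The sum over all 10 genes was 85.2, 104 and 88.9 RPKM in the control libraries and 94.9, 93.8 and 86.6 RPKM in the ethanol libraries. Control library 2 had the highest sum, and no test was made on the sums.

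**Figure D2:**
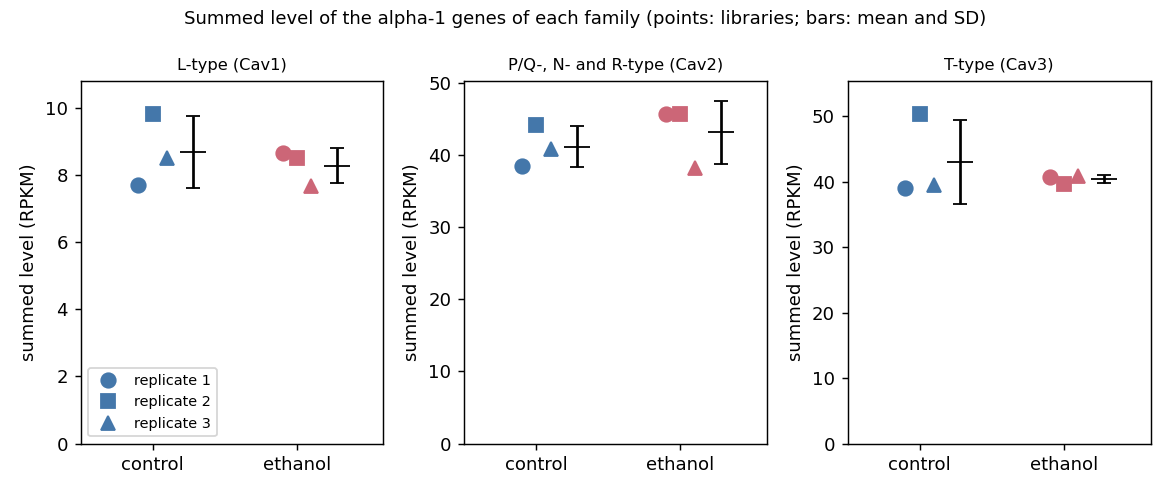
Summed level (RPKM, axes starting at 0) of the alpha-1 genes of the Cav1, Cav2 and Cav3 families in each library, with mean and SD of each group beside the points. For Cav3, control library 2 stood at 50.4 RPKM while the other 5 libraries lay between 39.1 and 40.8 RPKM.

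All 10 alpha-1 genes passed the filter on low counts and were compared between groups. The quasi-likelihood test of edgeR was adjusted by the method of Benjamini and Hochberg over 18141 genes. In it, 0 of the 10 had an adjusted p below 0.2, the threshold of the study, and the background was 0% of all genes tested. The study itself reported genes that passed this threshold, from a model whose details were not used here. At an unadjusted p below 0.05 there were also 0 of the 10, where the background was 4.21% of all genes (1.59% with a higher and 2.61% with a lower mean after ethanol). The edgeR likelihood ratio test, DESeq2 and limma-voom called 0 of the 10 as well, where they called 77, 75 and 0 of the 18141 genes. The CPM ranges of control and ethanol libraries overlapped for each of the 10 genes, where the background of genes without overlap was 8.85% (3.65% with ethanol higher and 5.19% with ethanol lower). Of the 10 log2 fold changes, 4 were above 0 and 6 below, with a median of -0.04 against 0.01 over all genes tested. In this edgeR test each of the 10 had an adjusted p of 1.0.

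**Figure D3:**
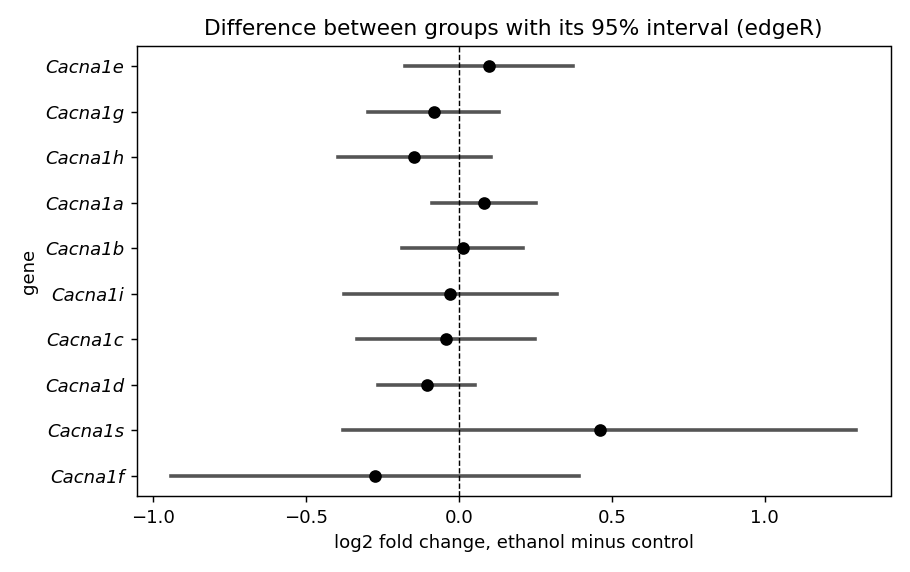
Log2 fold change (ethanol minus control) of each alpha-1 gene with its 95% interval from edgeR's quasi-likelihood fit, in the order of level per length. Each interval includes 0, and the intervals of Cacna1s and Cacna1f are the widest.

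The presynaptic Cav2 genes had fold changes slightly above 0. Cacna1e, which encodes the R-type channel Cav2.3, had 257, 294 and 285 CPM in control libraries 1, 2 and 3 and 321, 329 and 245 CPM in ethanol libraries 1, 2 and 3. Ethanol libraries 1 and 2 were thus the highest of the 6 and ethanol library 3 the lowest. The log2 fold change was 0.10 with a standard error of 0.12 and a 95% interval from -0.18 to 0.37. Without ethanol library 3 it was 0.22 (95% interval 0.05 to 0.39, unadjusted p = 0.0169, adjusted p = 0.466 in the edgeR test). In that setting 1638 of the 18356 genes tested had an unadjusted p below 0.05 in the same test. Without control 1, ethanol 1 or ethanol 2 the log2 fold change of Cacna1e was 0.036, 0.043 and 0.024, so that its size rested on single libraries in both directions. The summed cortical-type glutamatergic markers, 1 of 16 lists, were also lowest in control library 1 and ethanol library 3 (587 and 617 CPM), the same libraries that had the lowest Cacna1e. They were highest in ethanol library 2 (1112 CPM). Control library 2 had more of them than ethanol library 1 (982 against 885 CPM) but less Cacna1e. The general neuronal markers were lowest in ethanol library 3 (5008 CPM), but control library 1 had the most of the controls (5571 CPM). The part of these markers in the value was not tested.

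Cacna1a, which encodes the P/Q-type channel Cav2.1, had 121, 135 and 120 CPM in the control libraries and 140, 134 and 124 CPM in the ethanol libraries, in order of replicate number. The ethanol libraries lay above controls 1 and 3, but control 2 was above ethanol 2 and 3. The group means were 125 ± 8.31 and 133 ± 8.14 CPM (SD, n = 3), and the log2 fold change was 0.08 (standard error 0.07, 95% interval -0.09 to 0.25) and between 0.043 and 0.14 when any single library was removed. Cacna1b, which encodes the N-type channel Cav2.2, had 116, 139 and 126 CPM in controls and 133, 134 and 118 CPM after ethanol. The groups covered almost the same range, and the log2 fold change of 0.01 (standard error 0.09, 95% interval -0.18 to 0.21) became -0.014 when libraries were scaled by total reads alone.

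The T-type genes had fold changes below 0, and control library 2 was the highest library for each of them. Cacna1h, which encodes Cav3.2, had 127, 163 and 123 CPM in the control libraries and 122, 126 and 125 CPM in the ethanol libraries. Apart from control 2, the other 5 libraries lay within 122 to 127 CPM. Its log2 fold change was -0.15 (standard error 0.11, 95% interval -0.40 to 0.10), and without control library 2 it was -0.0041. Cacna1g, which encodes Cav3.1, had 129, 145 and 124 CPM in controls and 139, 115 and 122 CPM after ethanol, and a log2 fold change of -0.08 (standard error 0.09, 95% interval -0.30 to 0.13), which was -0.01 without control 2, -0.021 without ethanol 2 and -0.16 without ethanol 1. The highest library was control 2 and the lowest ethanol 2, and ethanol 1 was above controls 1 and 3. Cacna1i, which encodes Cav3.3, had 63.3, 98.4 and 74.2 CPM in controls and 70.5, 79.1 and 81.6 CPM after ethanol. All 3 ethanol libraries fell inside the control range, and the log2 fold change of -0.03 (standard error 0.15, 95% interval -0.38 to 0.32) turned to 0.17 without control library 2.

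Per exonic length, the L-type genes of neurons were the lowest of the 8 expressed genes. Cacna1c, which encodes Cav1.2, had 68.6, 95.7 and 79.8 CPM in the control libraries and 83.0, 83.9 and 70.2 CPM in the ethanol libraries. The ethanol values lay within the range of the controls, with a log2 fold change of -0.04 (standard error 0.13, 95% interval -0.33 to 0.25) that turned to 0.091 without control library 2. Cacna1d, which encodes Cav1.3, a channel that opens at more negative potentials than Cav1.2, had 70.8, 81.3 and 74.1 CPM in controls and 73.1, 69.4 and 67.9 CPM after ethanol. Here the ethanol libraries were all below the control mean of 75.4 ± 5.39 CPM (SD, n = 3), but ethanol 1 was above control 1. The group mean after ethanol was 70.1 ± 2.67 CPM (SD, n = 3), and the log2 fold change of -0.11 (standard error 0.07, 95% interval -0.27 to 0.05) had the smallest unadjusted p of the family (0.163 in the edgeR test). It stayed below 0 in each of 14 alternative analyses, between -0.16 and -0.05.

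Cacna1s and Cacna1f were detected in every library with few counts. Cacna1s, which encodes the voltage sensor of skeletal muscle, Cav1.1, had 14, 27 and 11 counts in the control libraries and 16, 24 and 31 counts in the ethanol libraries. The control and ethanol counts overlapped, and counting error alone was 18.0% to 30.2% of a value. The log2 fold change was 0.46 with a standard error of 0.36 and a 95% interval from -0.38 to 1.30, which is 0.77 to 2.46 times the control level, and it was 0.88 without control library 2, 0.25 without control library 3 and 0.26 without ethanol library 3. The skeletal muscle markers Ckm and Tnni2 had at most 4 counts in a library. Myh4 and Tnnt3 of the same list had 11 to 29 and 22 to 41 counts, and Acta1 had 729 to 901 counts. The summed list was between 12.3 and 13.4 CPM in controls and between 11.9 and 14.1 CPM after ethanol. Cacna1f, which encodes Cav1.4 of photoreceptor terminals, had 20, 19 and 22 counts in controls and 20, 11 and 19 counts after ethanol. Only ethanol library 2 stood below the rest, and the log2 fold change was -0.27 (standard error 0.29, 95% interval -0.94 to 0.39), or -0.066 without that library and -0.45 without ethanol library 1. Of the photoreceptor markers Crx was at 0 counts in all 6 libraries and the summed list was at or below 0.978 CPM.

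The intervals give the size of change that these libraries leave possible. For the 8 expressed genes the 95% interval reached from 0.76 times (Cacna1h) to 1.29 times (Cacna1e) the control level, and the half-width was between 0.16 (Cacna1d) and 0.35 (Cacna1i) on the log2 scale. In the exact permutation test on log2 CPM over the 20 label swaps, which cannot give a p under 0.1 with 3 libraries per group, the p of the 10 genes ran from 0.2 (Cacna1d) to 1.0 (Cacna1c and Cacna1i).

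The clearest pattern among the alpha-1 genes was between libraries of the control group rather than between groups. Control library 2 was the highest of all 6 libraries for 6 of the 10 genes (Cacna1b, Cacna1c, Cacna1d, Cacna1g, Cacna1h and Cacna1i), and of all genes tested 17.9% were highest in that library. For the 8 expressed genes its level was 1.08 times (Cacna1e) to 1.43 times (Cacna1i) the mean of the other 2 controls, with a median of 1.15 against 0.997 over all genes tested. This library had the lowest summed oligodendrocyte (3549 CPM), hypothalamic (15.2 CPM) and striatal-type (318 CPM) markers of the 6, the highest choroid plexus markers (1109 CPM) and the highest cortical-type markers of the controls (982 CPM). Their part in its alpha-1 levels was not tested. Ethanol library 3 stood at the other end for Cacna1e, at 0.754 times the mean of the other ethanol libraries, while its Cacna1i was 1.09 times that mean. The alpha-1 genes therefore did not vary as 1 block, and the spread differed between them. The SD of log2 CPM within groups ranged from 0.08 for Cacna1d and 0.09 for Cacna1a to 0.20 for Cacna1c and 0.24 for Cacna1i among the 8 expressed genes, against a median of 0.14 over all genes tested.

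**Figure D4:**
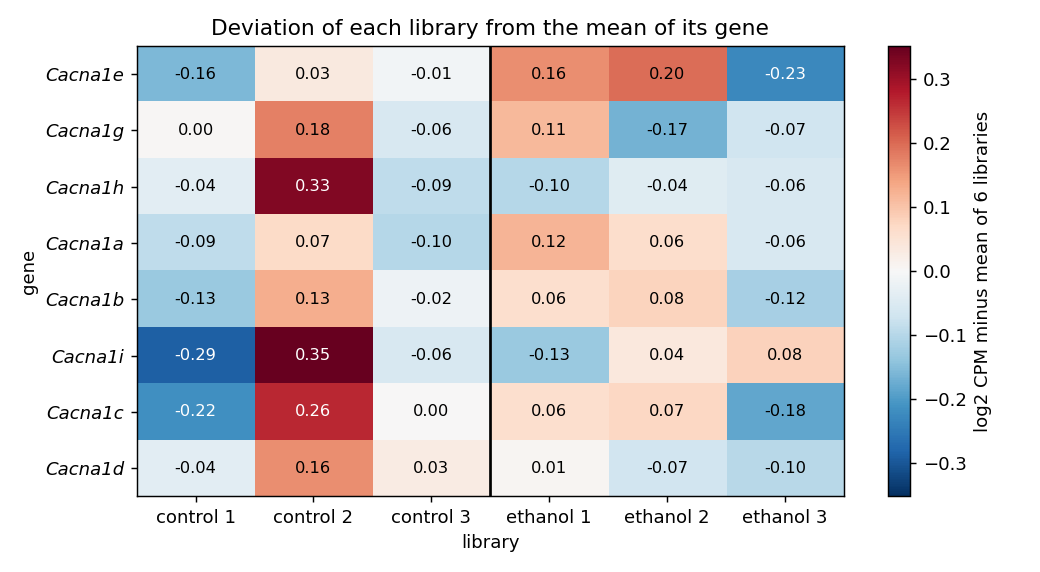
Log2 CPM of the 8 expressed alpha-1 genes in each library minus the mean of that gene over the 6 libraries, with a line between control and ethanol libraries. Control library 2 is above the mean for each gene, by 0.03 for Cacna1e to 0.35 for Cacna1i, and ethanol libraries 1 and 2 are high for Cacna1e (0.16 and 0.20).

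The genes closest in pattern were searched for the 3 alpha-1 genes that varied most over the 6 libraries, by the root mean square difference of centered log2 CPM. For Cacna1i they were Slc25a48 and C8h15orf39, with differences of 0.03 and 0.04 against an SD of Cacna1i of 0.22. Both were, like Cacna1i, lowest in control library 1 and highest in control library 2: Slc25a48 had 4.65 and 7.45 CPM and C8h15orf39 had 7.94 and 11.7 CPM there. For Cacna1s, with an SD of 0.49, they were Tgap1 and St13-ps2 (differences of 0.17 each), and for Cacna1f, with an SD of 0.32, Itgb1bp2 and Rpl37a-ps13 (0.07 and 0.08). With 18141 genes and 6 libraries a close match is easily found, and the values are given as a description.

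The alpha-1 subunit works with auxiliary subunits and partner proteins, and 59 such genes in 8 lists were examined in the same fit. Of these, 55 were tested, and 0 had an adjusted p below 0.2 (edgeR's quasi-likelihood test). Of the 55, 3 had an unadjusted p below 0.05 in this test, where the background was 4.21% of all genes in both directions together. All 3 had a higher mean after ethanol, and the background in that direction was 1.59%. The log2 fold change was above 0 for 46 of the 55, against 52.7% of all genes tested, with a median of 0.08 against 0.01. The groups did not overlap for 6 of the 55, against a background of 8.85%: Cacna2d4, Cacnb3, Cacng4, Cabp1 and Stx1a were separate with ethanol higher and Ryr3 with ethanol lower. The genes of the lists are not independent of each other. The general neuronal markers had a median log2 fold change of 0.12, but Snap25 and Syt1 belong both to them and to the partner genes. The part of neuronal content in these values was not tested.

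The alpha2delta and beta subunits carry the pore to the membrane and set its gating. Of the 4 alpha2delta genes 0 had an unadjusted p below 0.05 from edgeR's quasi-likelihood test. Cacna2d1, the receptor of gabapentin, was the most abundant of them per length (44.3 RPKM), with 292, 311 and 316 CPM in controls and 403, 402 and 255 CPM after ethanol. Like Cacna1e, it was highest in ethanol libraries 1 and 2 and lowest in ethanol library 3, and its log2 fold change was 0.21 (standard error 0.16, 95% interval -0.17 to 0.59). Without ethanol library 3 the value was 0.40 with an adjusted p of 0.138 in the edgeR test, and it was 0.10 without ethanol library 1 and 0.11 without ethanol library 2. Cacna2d3 had 27.9 RPKM and a log2 fold change of -0.03 (standard error 0.13). The 4 beta subunit genes had log2 fold changes between 0.06 and 0.16, and 0 had an unadjusted p below 0.05. Cacnb3 (56.6 RPKM) had 166, 185 and 193 CPM in controls and 209, 205 and 195 CPM after ethanol, so that the groups were separate by a small margin (log2 fold change 0.16, standard error 0.07, unadjusted p = 0.0572 in the edgeR test, and 0.09 to 0.21 on the log2 scale when any single library was removed). Cacnb1 (30.6 RPKM) had a log2 fold change of 0.08 (standard error 0.08).

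The gamma list holds the muscle subunit gene Cacng1 and relatives of which several are better known as auxiliary proteins of AMPA receptors. Its 8 genes had log2 fold changes between 0.02 and 0.66, with a median of 0.14, and 1 had an unadjusted p below 0.05. This was Cacng3, which had 29.8, 32.1 and 32.1 CPM in controls and 44.0, 44.1 and 31.1 CPM after ethanol. Here ethanol libraries 1 and 2 were above all controls and ethanol library 3 was among them. Its log2 fold change was 0.34 (standard error 0.13, unadjusted p = 0.0322, adjusted p = 1.0 in the edgeR test), and without ethanol library 3 it was 0.49 with an adjusted p of 0.0926 in the same test. With any of the other 5 libraries removed instead, the value was between 0.26 and 0.36 and its unadjusted p between 0.0578 and 0.111 in that edgeR test. Cacng7 and Cacng8, the most abundant per length (57.8 and 54.4 RPKM), had log2 fold changes of 0.12 (standard error 0.10) and 0.04 (standard error 0.17).

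Calmodulin is the calcium sensor that feeds back on Cav1 and Cav2 channels, and its relative CaBP1 competes with it on L-type channels. Of 8 genes in this list 5 were tested, and 1 had an unadjusted p below 0.05. Cabp1 had 38.5, 37.3 and 38.9 CPM in the control libraries and 44.6, 43.1 and 49.7 CPM in the ethanol libraries. All 3 ethanol libraries were above all 3 controls, which differed little among themselves. The log2 fold change was 0.26 (standard error 0.07, 95% interval 0.10 to 0.42, unadjusted p = 0.00574, adjusted p = 0.966 in the edgeR test), and it stayed between 0.20 and 0.30 when any single library was removed. Calm3 (1036 RPKM) had a log2 fold change of 0.08 (standard error 0.09). Cabp2, Cabp4 and Cabp5 were too low to be tested.

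Among 12 genes of the presynaptic active zone, which holds Cav2 channels close to synaptic vesicles, the log2 fold changes ran from 0.01 to 0.24 and 1 gene had an unadjusted p below 0.05. This gene was Stx1a, which encodes a membrane fusion protein that binds Cav2 channels, with 90.0, 104 and 105 CPM in controls and 124, 123 and 106 CPM after ethanol. The groups did not overlap, although ethanol library 3 was only just above control library 3, and the log2 fold change was 0.24 (standard error 0.09, unadjusted p = 0.0259, adjusted p = 1.0 in the edgeR test). The unadjusted p in this edgeR test was 0.0956 without control 1, 0.0891 without ethanol 1 and 0.0792 without ethanol 2, where the log2 fold change was 0.16, 0.20 and 0.21. Snap25 and Syt1, the most abundant of the list (851 and 253 RPKM), had log2 fold changes of 0.12 (standard error 0.13) and 0.09 (standard error 0.16).

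In the 3 remaining lists 0 genes had an unadjusted p below 0.05 from edgeR's quasi-likelihood test. The RGK GTPases, which inhibit high-voltage-activated channels, and the STAC adaptors had a median log2 fold change of 0.03 over the 6 genes tested. The 2 most abundant of them were Stac2 (9.32 RPKM, log2 fold change 0.16, standard error 0.10) and Rrad (4.72 RPKM, -0.08, standard error 0.13). The 6 release channels of intracellular stores were the only list with a median below 0 (-0.06). Of these, Itpr1 (19.1 RPKM) had a log2 fold change of 0.16 (standard error 0.07) and Ryr2 (8.75 RPKM) one of -0.12 (standard error 0.15). Ryr3, the gene without overlap, had 46.5, 64.01 and 49.6 CPM in controls and 45.6, 43.7 and 45.8 CPM after ethanol, so that control library 2 stood far above the rest and the other 5 libraries lay close together. The 10 pumps and exchangers that remove calcium from the cytosol had a median of 0.09, and the most abundant of them, Atp2a2 and Atp2b4 (149 and 77.9 RPKM), had log2 fold changes of 0.05 (standard error 0.11) and 0.11 (standard error 0.16).

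**Figure D5:**
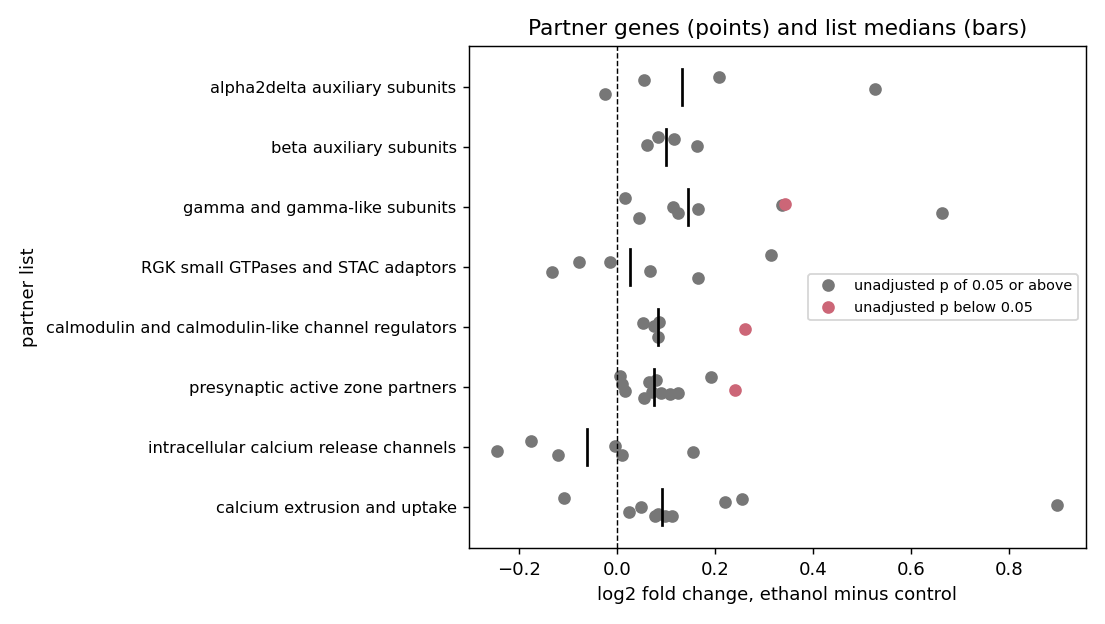
Log2 fold change (ethanol minus control) of the 55 partner genes tested, by list, with a black bar for the median of each list and red points for an unadjusted p below 0.05. The 3 red points are Cacng3, Cabp1 and Stx1a, and the release channels are the list whose median lies below 0.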

How the data were processed

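Amygdala RNA of 3 control and 3 ethanol libraries was sequenced as single-end reads of 100 nt from a stranded mRNA kit on 3 lanes. The authors deposited raw counts per gene. Per the file headers and the submitters' processing notes, reads were aligned with STAR 2.7.0f and counted with featureCounts of Subread 1.6.3 over the exons of Rnor_6.0 genes, with strand setting 2 and without reads that aligned to several places. No normalization or filter had been applied. Reads that align equally well to close paralogs are therefore missing from the counts.

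Symbols were matched by NCBI identifier to 29322 of 38445 genes (the table's assembly is GRCr8, used for names and for the promoter windows only). The tests used edgeR 4.0.16 under R 4.3.3: filterByExpr (at least 10 counts), TMM scaling, and its quasi-likelihood F test, with p-values adjusted over 18141 genes by the method of Benjamini and Hochberg. The study's threshold of 0.2 was used; its model is in supplementary methods not used here. Levels are CPM, or RPKM with the deposited exonic length. Log2 CPM carries a prior count of 2. The standard error is the absolute log2 fold change divided by the square root of F. The fit was tested on simulated data. Alternatives were the likelihood ratio test, DESeq2 1.42.0, limma-voom (limma 3.58.1), other scalings and filters, the replicate number as a block, and leaving out each library.

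The 3 libraries of a group are pools of different rats. The p-values of the group comparison set the difference between groups against the spread between these pools. In edgeR's test the estimate of this spread borrows from all genes. The sign-flip p of the gene order concerns differences between genes within the 6 libraries of both groups. At these depths 3 counts correspond to 0.0424 to 0.0479 CPM, and this floor, like counting error, covers counting only, since the reads carry no molecular identifiers and may copy the same molecule.

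The alpha-1 genes, partner lists and marker lists were chosen with earlier results of these data known. The genes named are the 10 alpha-1 genes, in each partner list the 2 with the highest mean RPKM and those with an unadjusted p below 0.05, and the 2 genes closest in pattern to the 3 most variable alpha-1 genes. Otx2, Eno2, Ckm, Tnni2, Myh4, Tnnt3, Acta1, Crx, Cacna2d4, Cacng4 and Ryr3 were singled out after their values were seen. Of the genes that this rule names, 1 is not reported here.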

Additional observations from a re-analysis of the deposited data

How the results depend on the processing

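The number of alpha-1 genes with an adjusted p below 0.2 stayed at 0 in each of 14 alternatives. The number of all genes called, 0 in edgeR's quasi-likelihood test, was 77 with the likelihood ratio test and 75 with DESeq2, and between 0 and 82 with 1 library left out (82 without ethanol library 3, 4 without ethanol library 1). Without ethanol library 3, 1638 of 18356 genes tested had an unadjusted p below 0.05, instead of 763 of 18141 (edgeR's quasi-likelihood test). Leaving out 1 library gave between 0 and 1 alpha-1 genes with an unadjusted p below 0.05 (Cacna1e without ethanol library 3), and between 0 and 1 called genes in the alpha2delta list (Cacna2d1) and in the gamma list (Cacng3), both without that library. The cause was not tested. By mean log2 RPKM, 8 of 10 genes kept their place in the control libraries alone and 10 of 10 with TPM.

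The log2 fold change of Cacna1b was -0.014 with library size alone. With 1 library left out, values turned sign within -0.055 to 0.084 for Cacna1b, -0.16 to 0.091 for Cacna1c, -0.17 to 0.17 for Cacna1i, -0.11 to 0.10 for Cacna2d3, -0.079 to 0.20 for Cacng8, -0.17 to 0.031 for Rrad, -0.016 to 0.23 for Syt1, -0.23 to 0.051 for Ryr2, -0.016 to 0.28 for Atp2b4 and -0.017 to 0.15 for Atp2a2.

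With the replicate block, 0 genes were called and 1030 instead of 763 had an unadjusted p below 0.05, and 0 alpha-1 genes passed either threshold. Same-numbered libraries come from different rats, and their deviations correlated by 0.03, 0.39 and 0.21 for numbers 1, 2 and 3 over 14241 genes. Control 1 correlated best with ethanol 3 (0.30), while controls 2 and 3 correlated best with the ethanol library of their own number. These correlations do not decide whether the numbers are pairs. The main test did not use them as pairs, and the replicate block is given beside it. Cacna1f and Cacna1s had no value with a minimum of 1 CPM. Counting error reached 30.2% of a value for these 2 genes and 1.55% for the other 8.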
